A study of Homo sapiens with 6 samples.

Results

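The mitochondrial ribosomal protein genes were taken as the rows of the deposited count table whose symbol is MRPL or MRPS followed by a number and at most 1 letter. The rule found 77 genes among the 26334 of the table, 48 named MRPL for the large subunit and 29 named MRPS for the small subunit, and it used no measured value. The RNA came from MCF10DCIS.com, a human basal-like breast cancer cell line. Control cells (shLuc) carried a lentiviral hairpin vector against luciferase, and WDR5-silenced cells (shWDR5) the same kind of vector against WDR5, with 3 libraries in each group. Both groups were therefore infected and puromycin-selected cells, carrying a vector with a U6 promoter for the hairpin and the red fluorescent marker TagRFP. The labels give one vector name for each group, while the methods describe WDR5 hairpins used as a pool, and neither settles which these libraries carried. With no second WDR5 group, hairpin and silencing cannot be told apart. The labels also do not say that replicates came from separate cultures, so p-values measure only the spread between these samples. The comparison asked how the RNA of the mitochondrial ribosome genes changed when WDR5, a subunit of the complexes that methylate histone H3 at lysine 4, was silenced.

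Mitochondria keep a small genome and translate its few messenger RNAs, which encode core subunits of the respiratory chain, on ribosomes of their own. The ribosomal RNAs of this machine are transcribed inside the organelle, whereas all of its proteins are encoded in the nucleus, made in the cytosol and imported. Many of these proteins descend from those of bacterial ribosomes, while others joined in the mitochondrial lineage, and the particle is assembled by dedicated GTPases, helicases and RNA-modifying enzymes.

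The libraries held 38218108 to 48500509 counts in shLuc and 46097058 to 57640167 in shWDR5. The 10 most abundant genes took 5.74 to 6.09% of counts in shLuc and 7.67 to 8.16% in shWDR5, a composition difference that moved with the groups and whose part in the results was not tested. WDR5 itself measured 52.6, 48.5 and 51.3 CPM (normalised counts per 1000000 counts of a library) in shLuc and 23.4, 24.4 and 20.8 CPM in shWDR5, a log2 fold change of -1.15 ± 0.07 (SE, n = 3 against 3, adjusted p = 1.86e-07, edgeR). All 8 basal epithelial markers examined exceeded 1 CPM in every library, and their summed level rose from 5870-6770 to 9940-11500 CPM with silencing, while every other marker list summed lower in shWDR5 without overlap. The epithelial list went from 4090-4290 to 3680-3960 CPM, the luminal one from 61.9-72.3 to 47.6-54.1 CPM, the fibroblast one from 21.6-23.7 to 14.9-17.8 CPM, the endothelial one from 7.81-8.45 to 5.31-6.02 CPM and the blood one from 4.02-5.08 to 3.2-3.64 CPM. The most abundant gene was KRT17 in the basal list, KRT8 in the epithelial one and GATA3 in the luminal one. It was COL1A1 in the fibroblast list, PECAM1 in the endothelial one and LYZ in the blood one. A sum can follow such a gene alone, and single markers are not given here. The sums thus moved with the groups, and the part of the markers in the results was not tested. Of 6 blood markers and 6 fibroblast markers, 1 of each exceeded 1 CPM in every library, and CD3E, HBB and LUM were at 0 in every library.

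All 77 genes passed the filter on low counts, and 31 of them fell and 8 rose upon WDR5 silencing (adjusted p under 0.05, edgeR quasi-likelihood test adjusted over 16117 genes). The share that fell, 40.3%, stood beside a background of 29.9% of all tested genes, and the share that rose, 10.4%, beside a background of 26.6%. The changes were mostly small. The median log2 fold change was -0.14, with quartiles at -0.33 and 0.01, where all tested genes had a median of -0.01 and quartiles at -0.33 and 0.29. Within 0.2 log2 units of zero lay 44 of the 77 genes (57.1%), compared with 34.5% of all tested genes. The study's size criterion adds a log2 fold change of at least 0.6 in either direction and an RPKM above 0.5 to the adjusted p. With it, 8 of the 77 genes fell (10.4%), the same share as the background of 10.4% of tested genes. Only 1 of the 77 rose, where the background was 7.9%. The 3 shWDR5 libraries lay below all 3 shLuc libraries for 36 of the 77 genes (background 32.4%). They lay above them for 8 of the 77 (10.4%, background 29.9%). Normalised to total counts only, a scaling that moved the median of all genes to -0.07 and that of the mitochondrial ribosomal protein genes to -0.20, 43 fell and 5 rose. The shares of all tested genes called with this scaling are not given here.

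**Figure D1:**
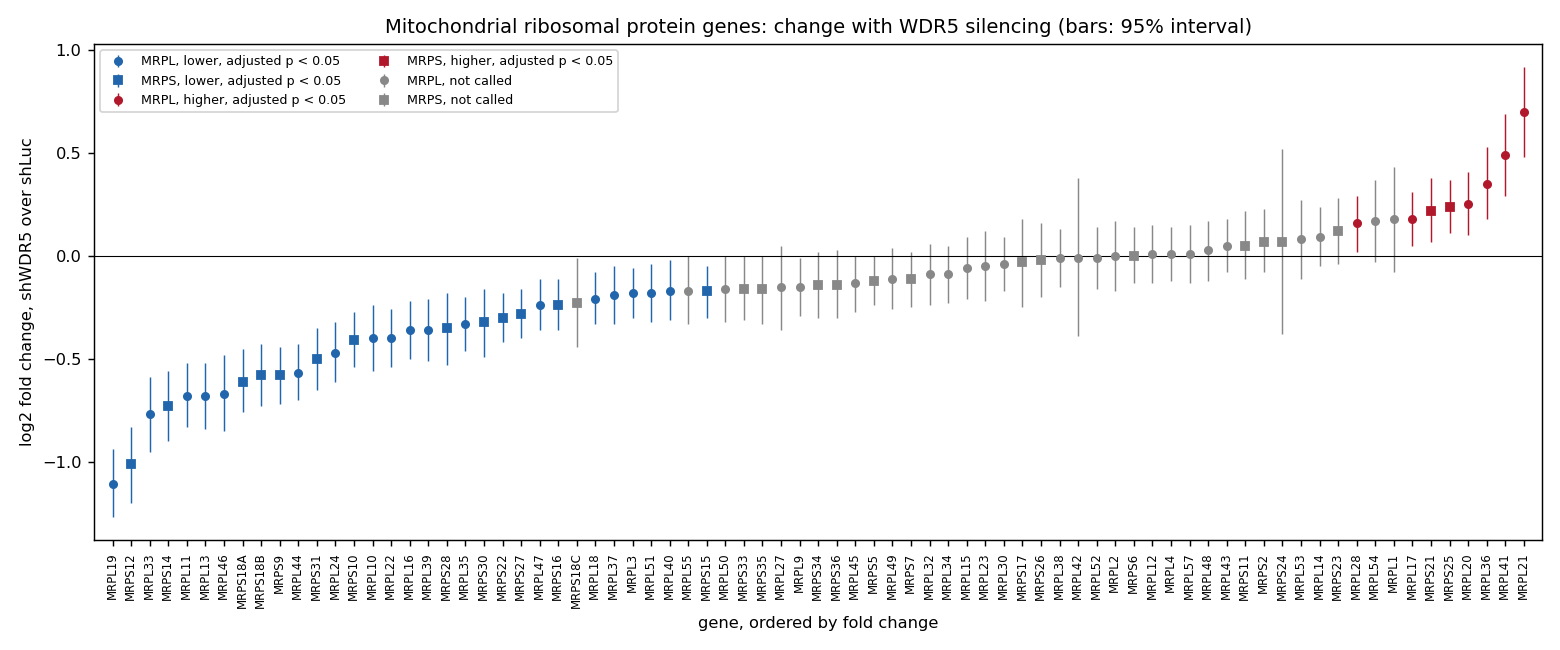
Log2 fold change of each of the 77 genes (shWDR5 over shLuc) with its 95% interval, ordered from lowest to highest; circles are MRPL genes, squares MRPS genes, blue marks genes that fell and red genes that rose at adjusted p under 0.05. The values run from -1.11 for MRPL19 to 0.70 for MRPL21, with the quartiles at -0.33 and 0.01.

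Added over the 77 genes, the level was 3706, 3517 and 3603 CPM in shLuc (3609 ± 94.6, SD) and 3237, 3253 and 3088 CPM in shWDR5 (3193 ± 90.9), 11.5% lower, and the groups did not overlap. In bulk RNA, fewer expressing cells and less RNA per cell cannot be told apart. The sum did not rest on the strongest members alone. Without MRPL19, MRPS12 and MRPL33 it went from 3340 ± 90.5 to 3053 ± 85.8 CPM, which is 8.6% lower. The MRPL sum was 10.7% lower and the MRPS sum 13.0% lower in shWDR5.

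Sorted by where the proteins sit in the assembled particle, 20 of 50 large-subunit genes fell and 6 rose, and 11 of 26 small-subunit genes fell and 2 rose. Of the 47 homologues of bacterial ribosomal proteins 20 fell and 6 rose (median log2 fold change -0.15), and of the 29 proteins specific to mitochondrial ribosomes 11 fell and 2 rose (median -0.14). The medians of both classes thus lay within 0.01 of each other. Over these subunit and class sets, the share that fell ran from 37.9% to 42.6%, beside 29.9% of all tested genes. The share that rose ran from 6.9% to 12.8%, beside 26.6% of all tested genes. Whether these sets differ from the background or from each other was not tested. The names do not always give the place. MRPS18A and MRPS30 are components of the large subunit, and both fell, MRPS18A by 0.61 ± 0.07 log2 units (adjusted p = 2.03e-05) and MRPS30 by 0.32 ± 0.07 (adjusted p = 0.00268, edgeR). MRPS36, which is now known as a component of the 2-oxoglutarate dehydrogenase complex rather than of the ribosome, had 19.5, 16.9 and 18.8 CPM in shLuc and 17, 17 and 16.1 CPM in shWDR5 and was not called (log2 fold change -0.14, adjusted p = 0.141).

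The strongest fall was that of MRPL19 (hg19 chr2:75873909-75889334, plus strand), the homologue of bacterial L19, which lies at the face of the large subunit that meets the small one. It measured 102, 115 and 110 CPM in shLuc and 45.3, 54.1 and 52.0 CPM in shWDR5. No shWDR5 library came near the control range, and the level dropped by 53.5% (log2 fold change -1.11 ± 0.08, 95% interval -1.27 to -0.94, adjusted p = 3.06e-07, edgeR). The small-subunit gene MRPS12 (chr19:39421348-39423659, plus strand), whose product forms part of the decoding centre, followed with 51.1, 44.1 and 46.0 CPM against 24.6, 24.7 and 20.7 CPM. Its log2 fold change was -1.01 ± 0.08 (adjusted p = 1.38e-06), and 14.3% of its exon length is shared with SARS2 on the opposite strand. The groups of MRPS12 did not overlap either, and no other member had a log2 fold change below -0.77.

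MRPL33 (chr2:27994584-28002608, plus strand), a homologue of bacterial L33, had the highest level per exon length of all members, at a mean of 219 RPKM (CPM per kilobase of exon) in shLuc, and fell to 128 RPKM. Per library, it had 117, 102 and 120 CPM in shLuc and 64.1, 73.1 and 62.0 CPM in shWDR5, a log2 fold change of -0.77 ± 0.08 (adjusted p = 9.76e-06, edgeR). The next most abundant members by RPKM in shLuc moved little. MRPL51 went from 113 to 100 RPKM (log2 fold change -0.18, adjusted p = 0.0285) and MRPL3, whose bacterial homologue reaches toward the peptidyl transferase centre, from 96.9 to 85.3 RPKM (-0.18, adjusted p = 0.0138). MRPL12 had means of 94.6 RPKM in shLuc and 95.2 RPKM in shWDR5, so the level in control cells did not order the changes. Over the 77 genes, which share the same libraries, the Spearman correlation of log2 fold change with mean CPM was -0.05 and with exon length -0.16.

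**Figure D2:**
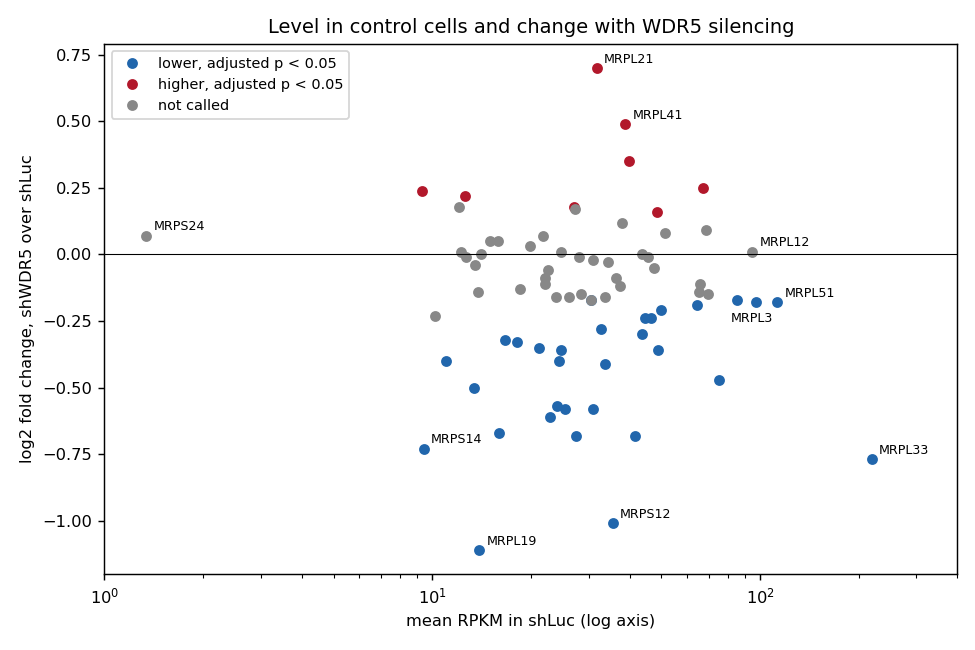
Mean RPKM in shLuc (log axis) against log2 fold change (shWDR5 over shLuc) for the 77 genes, coloured by call. MRPL33 at 219 RPKM is the only one of the 4 most abundant genes with a large fall, and MRPS24 at 1.34 RPKM stands far below the rest, which start at 9.32 RPKM.

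A further 7 genes made up the 10 lowest values, all between -0.73 and -0.58. MRPS14 (chr1:174982094-174992591, minus strand), a protein of the small-subunit head, had 22.8, 20.4 and 20.0 CPM in shLuc and 12.3, 13.2 and 12.7 CPM in shWDR5 (log2 fold change -0.73 ± 0.08, adjusted p = 8.29e-06, edgeR). MRPL11 (chr11:66202546-66206319, minus strand) belongs to the base of the stalk that recruits translational GTPases, and measured 49.5, 46.1 and 44.5 CPM against 30.1, 30.3 and 27.3 CPM (-0.68 ± 0.07, adjusted p = 6.99e-06). MRPL13, the homologue of an early-binding bacterial protein, measured 47.1, 42.3 and 49.1 CPM against 28.8, 30.2 and 27.4 CPM (-0.68 ± 0.07, adjusted p = 9.38e-06). In all 3 the shWDR5 libraries were tightly grouped and well below the controls.

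MRPL46 (chr15:89002709-89010633, minus strand), a mitochondria-specific protein of the central protuberance, fell from 16.8, 15.8 and 15.5 CPM to 10.4, 10.8 and 9.02 CPM (-0.67 ± 0.08, adjusted p = 3.80e-05, edgeR). MRPS9, a head protein whose bacterial homologue contacts the transfer RNA in the peptidyl site, went from 38.3, 36.0 and 37.3 CPM to 24.8, 25.7 and 24.2 CPM (-0.58 ± 0.06, adjusted p = 1.04e-05). Of the 3 S18 relatives, MRPS18B went from 49.5, 47.7 and 45.7 CPM to 32.7, 33.6 and 29.4 CPM (-0.58 ± 0.07, adjusted p = 2.26e-05). MRPS18A fell to a like degree, from 28.2, 27.5 and 26.0 CPM to 18.5, 18.5 and 16.7 CPM, and MRPS18C was not called (-0.23 ± 0.10, adjusted p = 0.0698).

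**Figure D3:**
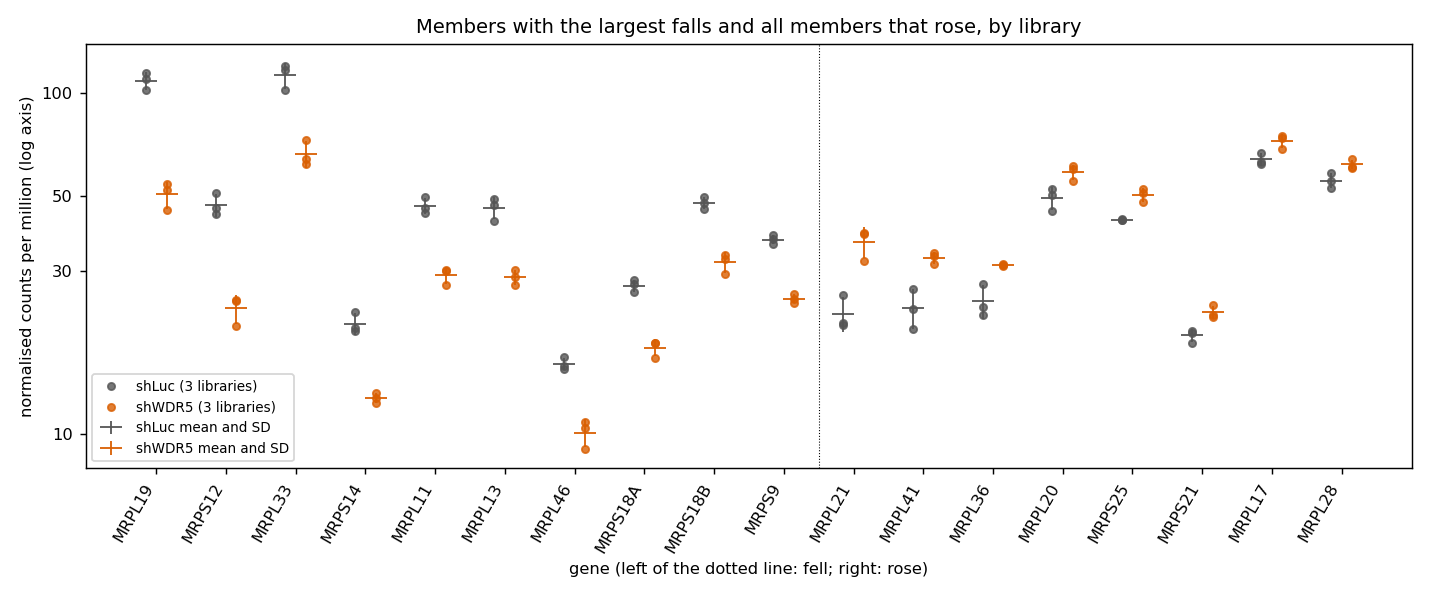
Normalised CPM (log axis) in each of the 3 shLuc libraries (grey) and 3 shWDR5 libraries (orange), with the mean and SD, for the 10 genes with the lowest log2 fold change and the 8 that rose. The groups are separate for every gene shown; the widest gap is that of MRPL19, at 102 to 115 CPM against 45.3 to 54.1 CPM.

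Among the 8 genes that rose, MRPL21 (chr11:68658746-68671303, minus strand), the homologue of bacterial L21, changed most. It had 25.6, 20.8 and 21.2 CPM in shLuc and 38.9, 38.6 and 32.2 CPM in shWDR5, 62.1% more (log2 fold change 0.70 ± 0.10, 95% interval 0.48 to 0.92, adjusted p = 0.000128, edgeR). MRPL41 (chr9:140446309-140447007, plus strand), a mitochondria-specific protein, had 26.7, 20.3 and 23.3 CPM against 33.2, 34.0 and 31.5 CPM (0.49 ± 0.09, adjusted p = 0.00076). MRPL36 (chr5:1798499-1799956, minus strand), among the smallest proteins of the particle, had 27.6, 22.3 and 23.6 CPM against 31.6, 31.4 and 31.0 CPM (0.35 ± 0.08, adjusted p = 0.00275). The lowest shWDR5 library exceeded the highest shLuc library in each of these 3 genes.

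The other 5 changed less. MRPL20, the homologue of bacterial L20, which is needed early in assembly, went from 52.4, 45.1 and 50.2 CPM to 61.1, 59.8 and 55.3 CPM (0.25 ± 0.07), and MRPS25, a mitochondria-specific protein of the small subunit, from 42.7, 42.4 and 42.5 CPM to 52.2, 51.1 and 47.8 CPM (0.24 ± 0.06). MRPS21 rose by 0.22, MRPL17 by 0.18 and MRPL28 by 0.16, all homologues of bacterial proteins. MRPS25 kept its call in all 14 alternatives (0.19 to 0.28), whereas the calls of the other 4 were lost when certain libraries were left out, at estimates that stayed positive. Without shLuc replicate 2, which had the lowest shLuc value of MRPL21, MRPL41, MRPL36, MRPL20, MRPS25, MRPS21 and MRPL17, 4 genes rose instead of 8, and the lost calls were those of MRPL20 (0.18, adjusted p = 0.0513, edgeR), MRPS21, MRPL17 (0.15, adjusted p = 0.107) and MRPL28 (0.14, adjusted p = 0.119). Without shLuc replicate 3, without shWDR5 replicate 1 or without shWDR5 replicate 2, 6 rose.

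To show the sequence upstream of the strongest movers, the 160 bases before the transcription start are given for the genes at both ends of the order whose promoter window is listed by RefSeq (GRCh38.p14). They are written 5′ to 3′ on the strand of the gene, and capitals mark whole matches to the core letters of known motifs on either strand. The letters searched were GCGCATGC and TGCGCA (the longer and the shorter core of the sites of the nuclear respiratory factor NRF1, which overlap where the longer core is preceded by T), CCGGAAG (ETS factors such as GABPA), AAGATGGC (YY1), CACGTG (the E-box bound by MYC), TATAAA and CCAAT. MRPL19, MRPS12 and MRPL33 fell, and MRPL41 and MRPL36 rose.
MRPL19, chr2:75646623-75646782, plus strand: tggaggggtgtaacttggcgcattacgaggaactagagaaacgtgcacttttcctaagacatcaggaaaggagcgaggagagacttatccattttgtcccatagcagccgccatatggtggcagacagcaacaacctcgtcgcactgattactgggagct
MRPS12, chr19:38930784-38930943, plus strand: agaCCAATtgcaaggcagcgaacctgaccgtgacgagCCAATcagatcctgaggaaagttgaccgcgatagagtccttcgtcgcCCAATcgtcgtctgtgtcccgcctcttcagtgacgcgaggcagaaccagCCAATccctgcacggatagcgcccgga
MRPL33, chr2:27771559-27771718, plus strand: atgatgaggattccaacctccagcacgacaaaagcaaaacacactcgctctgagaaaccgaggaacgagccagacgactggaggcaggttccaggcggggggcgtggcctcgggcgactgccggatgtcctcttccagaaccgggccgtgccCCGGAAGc
MRPL41, chr9:137551719-137551878, plus strand: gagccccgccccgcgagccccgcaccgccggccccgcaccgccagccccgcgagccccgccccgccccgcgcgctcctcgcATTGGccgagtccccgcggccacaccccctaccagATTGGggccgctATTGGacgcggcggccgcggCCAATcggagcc
MRPL36, chr5:1799838-1799997, minus strand: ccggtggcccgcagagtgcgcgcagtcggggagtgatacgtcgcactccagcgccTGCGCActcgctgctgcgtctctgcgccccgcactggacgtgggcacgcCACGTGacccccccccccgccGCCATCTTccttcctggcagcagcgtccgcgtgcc

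The 300-base window of MRPL19 (250 bases before to 50 after the start) held none of the 7 motifs. MRPS12, shown with the first of its 2 listed starts, held 4 CCAAT boxes upstream, an ETS core that begins 5 bases before the start and runs past it, and a YY1 core 212 bases before the start, outside the stretch shown. MRPL33 held 1 ETS core, 8 bases before the start, and MRPL41 held 4 CCAAT boxes on both strands. MRPL36 held a shorter NRF1 core, an E-box and a YY1 core 105, 56 and 35 bases before the start. Another shorter NRF1 core of MRPL36 began 2 bases past the start, outside the stretch shown. CCAAT boxes were thus shared by MRPS12 and MRPL41, an ETS core by MRPS12 and MRPL33, and a YY1 core by MRPS12 and MRPL36. GC content of the shown stretch ran from 50.6% for MRPL19 to 81.2% for MRPL41.

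Promoter windows of 68 of the 77 genes were listed, 84 windows in all (none was found for MRPL2, MRPL10, MRPL13, MRPL15, MRPL21, MRPL23, MRPL35, MRPS28 and MRPS36). An ETS core was present in 38.1% of these windows and in 10.3% of all 35116 windows in the table, and a YY1 core in 27.4% compared with 2.89%. Over the 16503 windows of tested genes, a closer background because every member is expressed, the shares were 15.0% for the ETS core and 4.33% for the YY1 core. The shorter NRF1 core was found in 20.2% of member windows, 8.24% of all windows and 11.1% of those of tested genes. In the same order, the longer one was in 7.14%, 3.05% and 4.28%, and the E-box in 10.7%, 7.26% and 8.81%. The CCAAT box was about as frequent in members (33.3%) as elsewhere (34.6%), and the TATA letters were rarer (3.57% against 11.5%, or 7.03% over tested genes). By call, the ETS core was in 13 of 27 genes that fell, 13 of 34 that were not called and 3 of 7 that rose, and the YY1 core in 10, 9 and 2 of them. Both motifs thus occurred in each of the 3 classes. A match of letters is a description and not evidence of binding.

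Genes that were not called stood beside genes that fell in the same part of the particle. The stalk of the large subunit is built from MRPL10, MRPL11 and MRPL12, and MRPL10 fell from 50.8, 49.1 and 46.4 CPM to 39.0, 38.3 and 33.5 CPM (-0.40 ± 0.07, adjusted p = 0.000527, edgeR), as MRPL11 did. MRPL12, which also binds the mitochondrial RNA polymerase, had 102, 91.1 and 95.4 CPM in shLuc and 101, 98.8 and 90.5 CPM in shWDR5 (0.01 ± 0.06, 95% interval -0.13 to 0.15). Within each library, the ratio of MRPL11 to MRPL12 was 0.486, 0.506 and 0.466 in shLuc and 0.299, 0.306 and 0.301 in shWDR5. The RNAs of stalk components therefore shifted relative to each other, in a set singled out after the values were seen. Protein was not measured in these libraries. Of the flattest genes above the median level, MRPL38, a protein of the central protuberance, had 75.4, 71.8 and 67.9 CPM against 75.5, 69.7 and 68.7 CPM (-0.01, 95% interval -0.15 to 0.13), and MRPS6 had 45.4, 43.5 and 40.9 CPM against 44.7, 43.1 and 42.3 CPM (0.00, 95% interval -0.13 to 0.14). MRPL42 was flat only in its mean. Its libraries ranged from 35.0 to 47.3 CPM in shLuc and from 32.6 to 48.8 CPM in shWDR5, which leaves an interval of -0.39 to 0.38.

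Some counts could hold reads of other genes, or lack reads that lie on shared bases. The counting settings that decide between these are not given. Exons of 14 members share bases with another gene of the table, and the kit does not mark strand. The shared part is 60.2% of MRPS18C (with FAM175A), 25.2% of MRPL43 (SEMA4G), 22.5% of MRPS6 (SLC5A3), 20.6% of MRPL20 (LOC148413), 16.8% of MRPS25 (NR2C2), 15.6% of MRPL9 (OAZ3), 11.7% of MRPS9 (UTAT33), 11.4% of MRPS2 (LOC101928525), 10.5% of MRPS7 (MIF4GD) and 8.6% of MRPL57 (SKA3), and smaller in MRPL49 (FAU and SYVN1) and MRPL13 (MTBP). Of these neighbours, LOC148413 rose by 0.56 and NR2C2 by 0.27 beside the rises of MRPL20 and MRPS25. MTBP fell by 0.89 and SARS2 by 0.31 beside the falls of MRPL13 and MRPS12. SLC5A3 fell by 1.08 beside the flat MRPS6. Beside other members that were not called, SEMA4G fell by 1.14 (MRPL43), OAZ3 by 0.9 (MRPL9), MIF4GD by 0.79 (MRPS7) and SKA3 by 0.44 (MRPL57). FAU and SYVN1 rose by 0.31 and 0.3 beside MRPL49, also not called. FAM175A and LOC101928525 were not called, and UTAT33 was not tested. MRPS24 shares 87.1% of its exon length with the readthrough gene URGCP-MRPS24, which had 0 counts in every library, and its own level was 0.85, 1.03 and 0.917 CPM in shLuc and 0.863, 0.827 and 1.26 CPM in shWDR5. Its level is therefore uncertain, and so is its log2 fold change (0.07 ± 0.20). Of the 63 members that share no exon base, 28 fell (44.4%) and 6 rose (9.52%), beside 29.9% and 26.6% of all tested genes. Annotated copies were minor for MRPL45 and MRPL42, whose copies MRPL45P2 and MRPL42P5 reached 5.78% and 0.191% of the parent's CPM in shLuc. MRPS31P5 reached 28.6% of MRPS31 and fell by 0.28 ± 0.10 (adjusted p = 0.0257), beside a fall of MRPS31 by 0.50 ± 0.07 (adjusted p = 6.39e-05), so these 2 are uncertain where reads could be split between them.

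The members are spread over 21 chromosomes, and many start next to a gene on the opposite strand. Such a head-to-head partner, with starts at most 1000 bases apart in hg19, was found for 30 members (39.0%) and for 20.0% of all tested genes. The 30 members form 29 pairs, because MRPL46 and MRPS11 are each other's partner. Of the members with a partner 13 fell (43.3%) and 1 rose (3.33%), and of those without a partner 38.3% fell and 14.9% rose. Over all tested genes, the background for members and partners alike, 29.9% fell and 26.6% rose. How often head-to-head pairs of other genes move together was not counted. When the member fell, the partner fell in 7 pairs, rose in 2, was not called in 2 and was not tested in 2. The pairs with a rise were MRPS18B with PPP1R10 and MRPL40 with HIRA, and the call of MRPL40 (adjusted p = 0.0473, edgeR) held in only 2 of 14 alternatives. When the member was not called, counting MRPS11 as well, the partner fell in 6, rose in 5 and was not called in 5. In the single pair with a member that rose, the partner fell.

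MRPL46 and MRPS11, whose starts are 51 bases apart, illustrate a split within a shared start region. MRPS11, a small-subunit protein, had 24.1, 21.4 and 22.3 CPM in shLuc and 24.7, 23.9 and 21.7 CPM in shWDR5 (0.05 ± 0.08, adjusted p = 0.591, edgeR), and the ratio of MRPL46 to MRPS11 was 0.696, 0.737 and 0.697 in shLuc and 0.424, 0.451 and 0.416 in shWDR5. MRPL21 and the helicase gene IGHMBP2 start 16 bases apart, and IGHMBP2 fell by 0.30 ± 0.07 (adjusted p = 0.00355). The ratio of MRPL21 to IGHMBP2 went from 1.27, 1.12 and 1.12 to 2.37, 2.51 and 2.17. MRPS18B fell beside a rise of 0.83 ± 0.06 in PPP1R10, a regulatory subunit of protein phosphatase 1 (adjusted p = 5.38e-07). MRPS12 and SARS2, the mitochondrial seryl-tRNA synthetase, fell together but to unequal degrees, at -1.01 and -0.31. MRPL27 had a log2 fold change of -0.15 (adjusted p = 0.193) beside a fall of 1.07 in EME1, a DNA repair endonuclease subunit. These pairs were picked for their values, so their differences are descriptions without a test.

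Other genes of mitochondrial translation were counted against the same background, 29.9% of tested genes lower and 26.6% higher. Of 6 mitoribosomal proteins whose names fall outside the rule, CHCHD1 (-0.25), ICT1 (-0.17, a peptidyl-tRNA hydrolase built into the large subunit) and PTCD3 (-0.13) fell, and DAP3, a GTP-binding protein of the small-subunit head, rose from 157, 148 and 161 CPM to 185, 184 and 172 CPM (0.21 ± 0.06, adjusted p = 0.00684, edgeR). The 3 falls were all lost with DESeq2, with its size factors, with upper-quartile scaling, with the RPKM filter and without shLuc replicate 1, shLuc replicate 3, shWDR5 replicate 2 or shWDR5 replicate 3, and 1 passed with the exact test of edgeR. Among 26 assembly factors 13 fell (50%) and 7 rose (26.9%), with a median of -0.15. With total counts only 3 of them rose, and without shLuc replicate 2, shWDR5 replicate 1 or shWDR5 replicate 3 it was 4. FASTKD2, an RNA-binding protein of large-subunit assembly, fell from 60.6, 64.7 and 70.9 CPM to 38.5, 46.6 and 43.6 CPM (-0.61 ± 0.08, adjusted p = 6.25e-05), and METTL15, a methyltransferase of the small-subunit ribosomal RNA, by 0.51 ± 0.10. The assembly GTPase MTG2 rose by 0.37 ± 0.07 and NGRN by 0.36 ± 0.06.

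Of 16 factors that initiate, elongate, terminate or otherwise serve mitochondrial translation, 6 fell (37.5%) and 1 rose (6.25%), with a median of -0.10, and without shWDR5 replicate 3 the count was 3 lower and 2 higher. The ribosome recycling factor MRRF fell by 0.33 and its partner GTPase GFM2 by 0.22. The release-factor relatives went opposite ways, MTRF1 at -0.40 (adjusted p = 0.00278) and MTRF1L at 0.22 (adjusted p = 0.0103, edgeR). Of the 17 mitochondrial aminoacyl-tRNA synthetases, which charge the transfer RNAs read by this ribosome, 10 fell (58.8%) and 4 rose (23.5%), with a median of -0.24. LARS2 fell from 40.0, 39.9 and 38.2 CPM to 18.2, 20.1 and 16.2 CPM (-1.11 ± 0.08, adjusted p = 5.07e-07), IARS2 fell by 0.47, and MARS2 rose from 15.0, 15.9 and 15.4 CPM to 25.7, 26.6 and 26.2 CPM (0.76 ± 0.07, adjusted p = 1.80e-06).

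Of 11 genes of mitochondrial DNA maintenance and transcription 3 fell (27.3%) and 2 rose (18.2%), shares near the background, and without shLuc replicate 1 it was 5 that fell. The exonuclease MGME1 fell by 0.36 and the primase-polymerase PRIMPOL by 0.66, the helicase C10orf2 rose by 0.41 and the transcription factor TFB2M by 0.29. Among 9 regulators of mitochondrial gene expression, 22.2% fell and 22.2% rose. ESRRA (-0.62, adjusted p = 1.46e-05) and PPARGC1B (-0.42) fell, and MYC (0.39, adjusted p = 5.81e-05, edgeR) and PPARGC1A (0.46) rose, whereas NRF1, GABPA, GABPB1, YY1 and PPRC1 were not called. Genes encoded by mitochondrial DNA were not analysed here.

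The cytosolic ribosome and the respiratory chain, whose mitochondrially made subunits are the product of mitochondrial translation, were set beside these genes. Of 80 cytosolic ribosomal protein genes tested of 86 listed, 45 fell (56.2%) and 27 rose (33.8%), beside 29.9% and 26.6% of all tested genes. Their median was -0.30 with quartiles at -0.47 and 0.32, and 7 lay within 0.2 of zero. RPL39L fell by 1.24, RPL7L1 by 1.01 and RPL29 by 0.64, and RPS15A by 0.84 ± 0.06 (adjusted p = 5.57e-07, edgeR). The genes not called were 8 of these 80, 38 of the 77 mitochondrial ribosomal ones, 56 of 82 respiratory chain ones and 7014 of all 16117 tested. Within 0.2 of zero lay 57.1% of the mitochondrial ribosomal genes, 65.9% of the respiratory chain genes and 34.5% of all tested genes. Small changes were thus not particular to the mitochondrial ribosome. Of 82 nuclear-encoded respiratory chain genes tested of 88 listed, 16 fell (19.5%) and 10 rose (12.2%), with a median of -0.03. Both shares lay below the background, and both cytosolic shares above it. UQCRFS1, the Rieske protein of complex III, rose by 0.70 ± 0.07 (adjusted p = 3.23e-06), and COX6B2, NDUFA9 and SDHC fell by 0.98, 0.61 and 0.51. The differences between these gene sets were not tested.

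**Figure D4:**
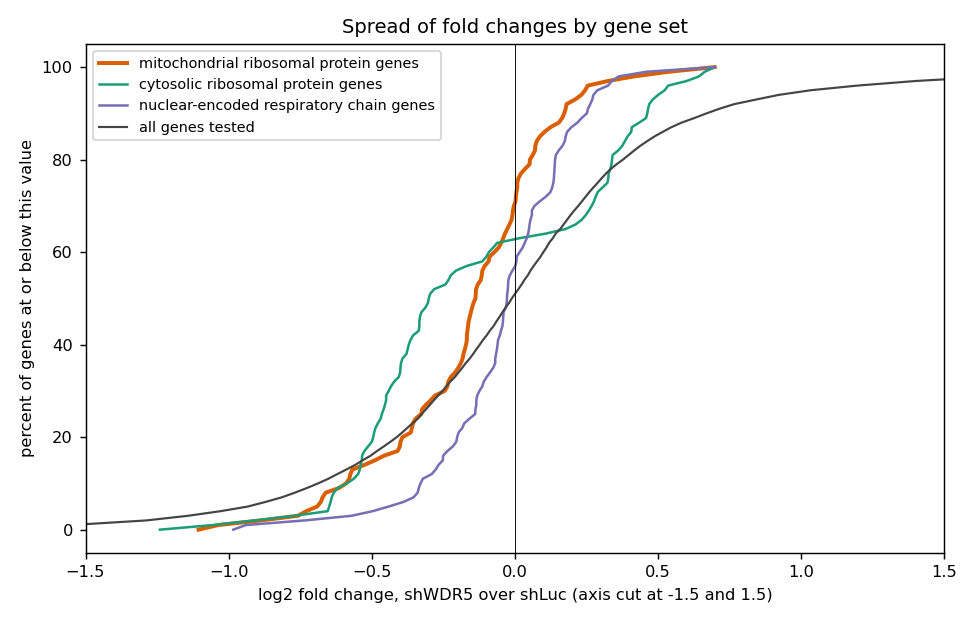
Cumulative percent of genes at or below each log2 fold change (shWDR5 over shLuc) for the mitochondrial ribosomal protein genes, cytosolic ribosomal protein genes, nuclear-encoded respiratory chain genes and all tested genes, with the horizontal axis cut at 1.5 log2 units either side. The mitochondrial ribosomal curve crosses 50% at -0.14, between the cytosolic ribosomal curve at -0.30 and the respiratory chain curve at -0.03.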

How the data were processed

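RNA of 6 MCF10DCIS.com samples was sequenced from poly-A libraries. Per the labels and methods, the authors aligned reads to hg19 with TopHat2 2.1.0, counted them per gene with featureCounts and tested with edgeR 3.2.2; the deposited gene counts are raw whole numbers. The strand and multi-mapping settings are not given in the sources used here. The authors' own table of fold changes and p-values was not used. From the counts, genes were filtered (filterByExpr, minimum count 10), TMM-normalised and tested with the quasi-likelihood test of edgeR 4.0.16 (R 4.3.3) with Benjamini-Hochberg adjustment; SE is the log2 fold change over the root of its F. CPM use TMM-scaled library sizes, and RPKM add the exon length. The members and lists were chosen with earlier results of these data known. Genes named are the 10 lowest and highest members called, the 4 most abundant, the 3 flattest above the median level, MRPS18A, MRPS30, MRPS36, members that share exons, and 4 per list by adjusted p (1 of these is not reported here); further ones were added after their values were seen. The test was checked on simulated counts. Alternatives were DESeq2 1.42.0, edgeR's exact test, other scalings and filters, a replicate block and each library left out. Motifs were searched in RefSeq promoter windows.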

Additional observations from a re-analysis of the deposited data

How the results depend on the processing

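Over 14 alternatives, 26 of the 31 members that fell and 4 of the 8 that rose kept their call in every one, and none of these 39 changed sign. Of the others, MRPL40 was called lower in only 2 alternatives, MRPL51 and MRPS15 in 9, MRPL37 in 10 and MRPL3 in 13, and MRPL28 was called higher in 6, MRPL17 in 9, MRPS21 in 11 and MRPL20 in 13. With total counts only, 5 rose. Leaving out single libraries gave 28 to 32 that fell and 4 to 8 that rose, 4 of them without shLuc replicate 2; the size criterion then gave 1 to 2 that rose, 2 without shLuc replicate 1. Members without shared exon bases were counted after seeing the data. A replicate block gave 41 that fell and 10 that rose. The shares of all tested genes called under these alternatives are not given here, so these counts stand without a background. The labels do not say whether equal replicate numbers mark pairs. Replicates 1 and 3 of shLuc correlated best with their own number in shWDR5 (r = 0.64 and 0.24). For shLuc replicate 2 the best was shWDR5 replicate 3 (0.44), not its own number (0.08). Pairing is thus not settled, and the main fit used no block. Sign changes occurred in members that were not called. MRPL38 and MRPL42 were at 0.01 with DESeq2, with its size factors and with the RPKM filter, and at 0.03 with upper-quartile scaling. With total counts only, MRPL12, MRPL57 and MRPS6 were at -0.05 and MRPL43 at -0.01, and without a filter MRPL12 and MRPL57 were at -0.00 and MRPS6 at -0.01. Single libraries left out moved MRPL12 from -0.04 to 0.07, MRPL38 from -0.05 to 0.04, MRPL42 from -0.14 to 0.14, MRPL57 from -0.02 to 0.05, MRPS6 from -0.04 to 0.05 and MRPS24 from -0.14 to 0.19. The cause was not tested. About 1 CPM limits what can be said of MRPS24.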
